A study of Mus musculus with 6 samples.

Results

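Duct and epithelial transcripts were followed through isolated mouse islets of Langerhans: Cftr, Sox9, the keratin genes Krt7, Krt19, Krt8 and Krt18, Epcam, Clu and Spp1. The members are all probe sets (groups of short probes that together read 1 transcript) whose platform symbol is one of these names. The 9 genes were selected on the knockout and control values of these same arrays, so the differences of members between groups are descriptions and carry no test. Of the 9 genes, 8 had probe sets named for them alone, 17 probe sets out of 45037. Spp1 had none and was not analysed here.

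The islets came from mice aged 8 weeks on a mixed SV 129/C57BL/6 background, with 3 arrays per group and, per the series' design text, a different animal behind each. Knockout animals were Pdx1Cre;PPARbetafl/fl, in which both copies of Ppard (PPAR-beta) are floxed and Cre is driven by the Pdx1 promoter, active in the early pancreas that gives rise to endocrine, acinar and duct cells alike. Controls were PPARbetafl/fl littermates without Cre, so the floxed alleles were common to all 6 arrays, and the effect of the deletion cannot be told apart from that of the Cre transgene. The comparison asks how islet transcripts differ with the genotype. The labels name beta cells, but the protocol isolates whole islets on a density gradient. Ppard itself was not lower on the arrays labelled knockout: its brighter probe set read 7.75, 7.56 and 7.12 in controls and 8.01, 8.20 and 7.70 in knockouts (log2; difference 0.49 ± 0.20, limma adjusted p = 0.38). Its dimmer probe set differed by 0.35 ± 0.11 (limma adjusted p = 0.26), with all knockouts above all controls. No source used here names the deleted exon, so a probe set outside it would check nothing, and the genotype rests on the labels. Array medians lay between 5.39 and 5.49, and all values are log2 expression per probe set.

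The pancreatic duct is a simple epithelium that carries acinar enzymes to the gut and rinses them with a bicarbonate-rich fluid. CFTR is the cyclic AMP-gated chloride and bicarbonate channel of its apical membrane, SOX9 is the transcription factor that marks ductal and progenitor cells, and KRT7 and KRT19 are keratins of the duct lining. KRT8 and KRT18 form the filament pair of all simple epithelia, acinar and endocrine cells included. EPCAM is a cell-surface adhesion protein of epithelia, and clusterin (Clu) and osteopontin (Spp1) are secreted proteins made by duct cells and by several other cell types. An islet preparation holds a varying number of acinar and duct fragments, so these genes also report on what travelled with the islets. In bulk RNA, fewer cells of a type and less RNA per cell cannot be told apart.

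RefSeq's promoter table (build GRCm38.p6) held windows for 5 of the 8 measured genes. The sequences of Cftr, which stood apart between the groups, and of Krt8 and Krt18, which moved together from array to array, are shown as the 250 bases before the annotated start, 5′ to 3′ on the gene's strand. They lie at chr6:18170437-18170686 (+), chr15:102004343-102004592 (-) and chr15:102027966-102028215 (+). Capitals mark matches to GGGCGG, the GC box, on either strand.
Cftr: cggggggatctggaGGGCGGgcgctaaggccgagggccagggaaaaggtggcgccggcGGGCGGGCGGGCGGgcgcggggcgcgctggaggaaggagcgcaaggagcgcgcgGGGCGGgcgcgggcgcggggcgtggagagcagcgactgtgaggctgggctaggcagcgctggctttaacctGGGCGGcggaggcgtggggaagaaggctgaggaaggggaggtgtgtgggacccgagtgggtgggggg
Krt8: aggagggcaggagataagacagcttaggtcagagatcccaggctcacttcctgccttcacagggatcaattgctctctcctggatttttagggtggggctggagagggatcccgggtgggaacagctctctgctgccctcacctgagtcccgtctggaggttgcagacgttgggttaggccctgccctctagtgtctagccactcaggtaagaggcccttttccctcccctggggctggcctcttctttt
Krt18: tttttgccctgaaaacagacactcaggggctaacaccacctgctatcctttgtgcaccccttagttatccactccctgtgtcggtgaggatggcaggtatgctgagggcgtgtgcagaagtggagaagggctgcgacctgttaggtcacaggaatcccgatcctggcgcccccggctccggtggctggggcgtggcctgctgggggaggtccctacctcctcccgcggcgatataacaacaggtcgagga
The Cftr sequence is 76.4% G and C, at percentile 97.2 of all windows, against 58.0% for Krt8 and 60.4% for Krt18. It holds 6 matches to GGGCGG, some of which overlap each other. A further 30 bases around the Cftr start (chr6:18170680-18170709, bases -7 to 23) hold a match to CCAAT on the reverse strand and one to TGACATCA, a variant of the cyclic AMP response element, both in capitals.
Cftr start: tggggggaATTGGaagcaaaTGACATCAcc
Over the full windows of 300 bases, searched on both strands, GGGCGG matched in 35.7% of 32851 windows, CCAAT in 37.4%, TGACATCA in 3.62%, TATAAA in 13.6% and TTCNNNGAA, the form bound by STAT factors, in 8.30%. TTCNNNGAA did not match in the Cftr, Krt7, Krt8, Krt18 or Epcam window. In Krt8, TATAAA matched on both strands across the annotated start (overlapping matches within bases -3 to 5), and Krt18 held none of the 5 motifs in its window. These matches describe letters only.

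Cftr stood apart from every other member. On its brighter probe set the controls read 4.50, 4.38 and 3.72 and the knockouts 8.13, 8.00 and 8.23. All knockout arrays lay far above all controls, and the knockouts spanned 0.23 while the controls spanned 0.78. The means were 4.20 ± 0.42 and 8.12 ± 0.12 (SD, n = 3 each), a difference of 3.92 ± 0.21 (SE), or 15.1-fold. The other Cftr probe set was dimmer, at 2.39, 1.86 and 2.0 in controls and 4.95, 4.80 and 4.92 in knockouts, and differed by 2.81 ± 0.16. Both probe sets therefore ordered the groups in the same way with no overlap. The control level was dim on either, at percentiles 33.6 and 2.79 of all probe sets. The values carry no detection call, so the fold against controls depends on the background level, whereas the knockout mean of the brighter probe set reached percentile 78.7. By the manufacturer's naming, the brighter set (suffix s) has probes that can match more than 1 transcript, and the dimmer one (suffix a) reads alternative transcripts of the gene. Among all 18193 genes, 10 had a rise in knockouts at least as large as that of Cftr, itself included. In the other direction, the lowest difference over all genes was -4.18.

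**Figure D1:**
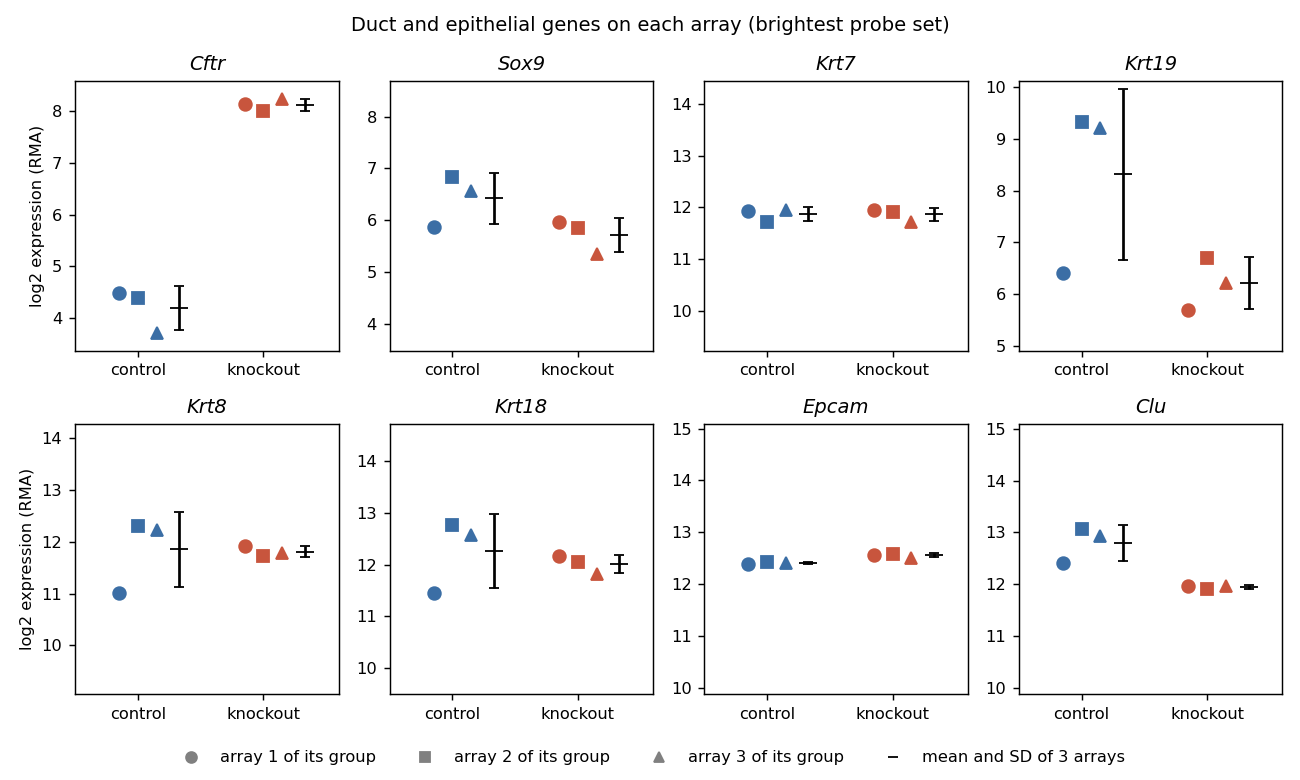
Log2 expression (vertical axes, each spanning the same number of log2 units) of the 8 measured genes on the 3 control and 3 knockout arrays, with the mean and SD of each group in black. Cftr separates the groups at about 4.20 against 8.12, Krt7 and Epcam hardly vary, and for Krt19, Krt8, Krt18 and Sox9 control 1 lies well below the other two controls.

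Sox9 did not follow Cftr. Its brightest probe set read 5.88, 6.83 and 6.57 in controls and 5.98, 5.84 and 5.35 in knockouts. Control 1 stood at the level of the knockouts, below the other two controls, so the groups overlapped. The means were 6.43 ± 0.49 and 5.72 ± 0.33 (SD, n = 3), a difference of -0.70 ± 0.28 (SE), which was -0.16 ± 0.28 against control 1 alone. The other Sox9 probe sets were dim, at percentiles 15.8 and 7.65, and differed by 0.14 ± 0.16 and -0.12 ± 0.11.

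The 2 duct keratins behaved differently from each other. Krt19 read 6.40, 9.32 and 9.21 in controls 1 to 3 and 5.70, 6.70 and 6.22 in knockouts. Controls 2 and 3 were far above the other 4 arrays, and control 1 lay inside the knockout range. The means were 8.31 ± 1.65 and 6.21 ± 0.50 (SD, n = 3), a difference of -2.10 ± 0.76 (SE), and -0.19 ± 0.39 against control 1 alone. The spread of Krt19 within groups was at percentile 99.8 of all probe sets. In contrast, Krt7 read 11.94, 11.72 and 11.95 in controls and 11.96, 11.92 and 11.72 in knockouts, among the brightest probe sets of the array (percentile 98.7). Its groups overlapped fully, with a difference of -0.0028 ± 0.124 (0.050 after each array was centred on its median). Control 2, the highest array for Krt19, was among the 2 lowest for Krt7, whereas control 3 was high for both.

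Krt8 and Krt18, whose proteins pair in 1 filament, moved together from array to array. Krt8 read 11.02, 12.31 and 12.23 in controls and 11.92, 11.71 and 11.77 in knockouts. Krt18 read 11.45, 12.76 and 12.58 in controls and 12.16, 12.05 and 11.83 in knockouts. For both genes control 1 was the lowest of the 6 arrays, controls 2 and 3 the highest, and the knockouts lay between them. Relative to control 1, control 2 was higher by 1.29 for Krt8 and 1.31 for Krt18, control 3 by 1.21 and 1.13, and knockout 1 by 0.90 and 0.71. The group means differed by less than the spread between controls, by -0.050 ± 0.334 for Krt8 (SE, 11.85 ± 0.72 against 11.80 ± 0.10, SD, n = 3) and by -0.25 ± 0.33 for Krt18 (12.26 ± 0.71 against 12.01 ± 0.17). Without control 1 these were -0.47 and -0.66, and without control 2 they were 0.18 and -0.0027. The spread was in the controls: the Krt8 range was 1.29 there and 0.20 in the knockouts. The brightest Krt8 probe set, read here, has the suffix x, which marks probes that resemble other sequences. The other 2 Krt8 probe sets, which carry the suffixes a and x, gave -0.037 ± 0.383 and -0.14 ± 0.39. Against control 1 alone the direction turned, to 0.78 ± 0.16 for Krt8 and 0.56 ± 0.19 for Krt18.

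Epcam was steady. Its brighter probe set read 12.38, 12.43 and 12.42 in controls and 12.57, 12.59 and 12.52 in knockouts (log2). The knockouts were higher on every array, but by only 0.15 ± 0.10 (SE), or 1.11-fold, with a spread within groups at percentile 0.548 of all probe sets. The dimmer Epcam probe set differed by 0.16 ± 0.12 and its groups overlapped.

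Clu was the member with the clearest lower level. Its brightest probe set read 12.41, 13.07 and 12.92 in controls and 11.96, 11.90 and 11.96 in knockouts. All knockouts lay below all controls, and control 1 was the lowest control. The difference was -0.86 ± 0.18 (SE; 12.80 ± 0.34 against 11.94 ± 0.03, SD, n = 3), and the other 3 Clu probe sets gave -0.78 ± 0.17, -0.79 ± 0.17 and -1.03 ± 0.20. On all 4 Clu probe sets the groups did not overlap, and 3 of the 4 have the suffix x, which marks probes that resemble other sequences. Against control 1 alone the difference was -0.47 ± 0.14.

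In the fit over all 45037 probe sets (limma, Benjamini-Hochberg adjusted p under 0.05), both Cftr probe sets were called higher and no other member probe set was called. The share of all probe sets called was 0.713% higher and 0.184% lower. Of the 17 member probe sets, 3 had knockouts above all controls (both of Cftr and 1 of Epcam) and 4 had knockouts below all controls (all of Clu), while 10.1% and 8.83% of all probe sets did so. Since the choice of genes used this contrast, nothing is read from these counts.

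Most members that varied within the controls did so with the digestive enzyme genes, with Cftr as the exception. Averaged over 26 acinar markers, controls 1 to 3 read 6.52, 10.51 and 10.67, whereas knockouts 1 to 3 read 8.14, 5.53 and 5.59. Controls 2 and 3 were the enzyme-rich preparations, and control 1 was poor. Lower means in knockouts were seen for 24 of the 26 genes, beside 9028 of all 18193 genes. The pattern was broad, and 23 of these 26 genes were higher by at least 0.5 in both controls 2 and 3 than in control 1, against 2.63% of all genes. Among the 8 members 5 showed this pattern (Krt19, Krt8, Krt18, Sox9 and Clu). Cftr did not, since its controls 2 and 3 were lower than control 1 by 0.11 and 0.78. The members departed from the enzyme genes in the knockouts. Knockout 1 had the highest acinar mean of the knockouts but the lowest Krt19 value of all 6 arrays. Knockouts 2 and 3 had lower acinar means than control 1, yet Krt8 was 0.70 and 0.75 above control 1 there, and Krt18 0.60 and 0.38 above. Krt19 was 0.30 above control 1 in knockout 2, though below it in knockout 3. The acinar means of the groups overlapped (9.23 ± 2.35 in controls, 6.42 ± 1.49 in knockouts, SD, n = 3). In a fit with the acinar mean of each array as a covariate, Cftr differed by 3.70 ± 0.27 (SE), Clu by -0.56 ± 0.18, Sox9 by -0.19 ± 0.23, Krt19 by -0.93 ± 0.81, Krt8 by 0.62 ± 0.23, Krt18 by 0.41 ± 0.24, Krt7 by -0.0080 ± 0.177 and Epcam by 0.17 ± 0.14. The Cftr difference was thus nearly as large with the covariate, and against control 1 alone (3.62 ± 0.16), as over all arrays. The Sox9, Krt19 and Clu differences were smaller in both of those fits, and Krt8 and Krt18 were then higher in knockouts. The fit against control 1 alone has a single control, whose spread is taken to equal that of the knockouts.

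**Figure D2:**
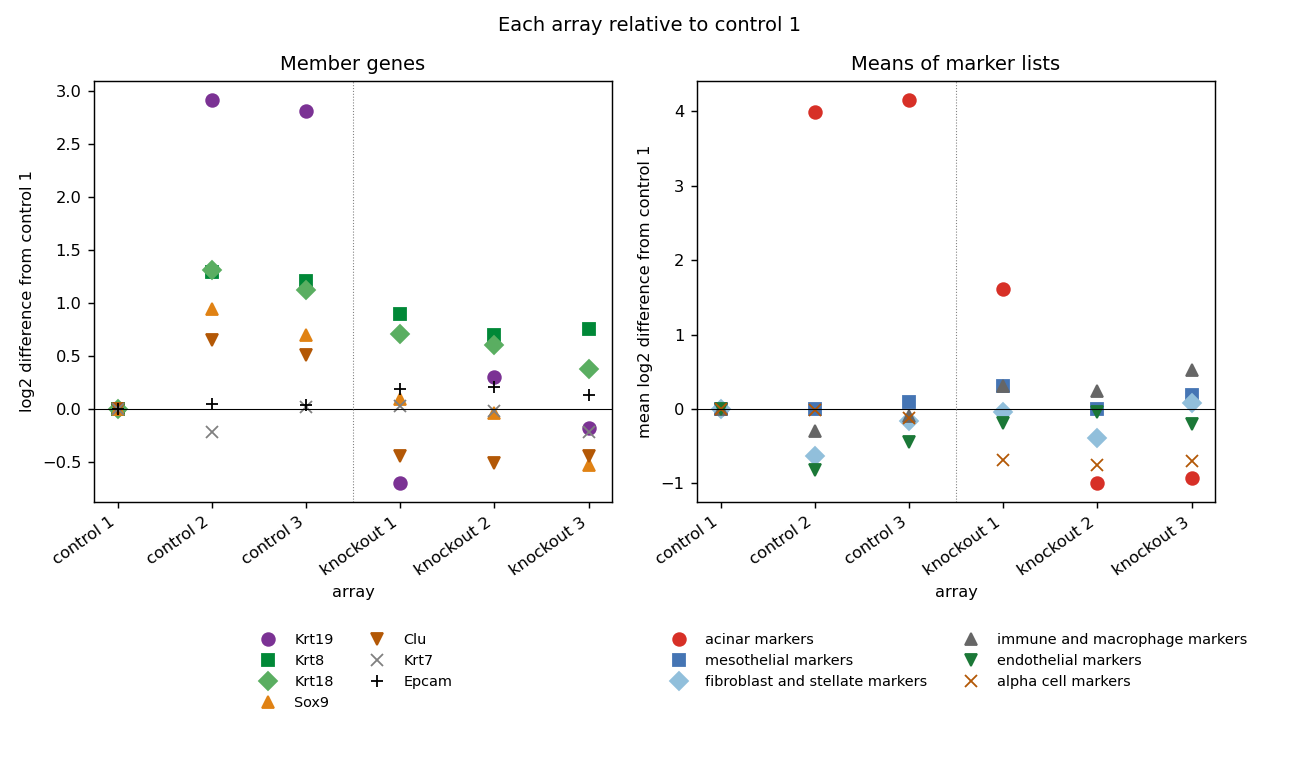
Log2 difference of each array from control 1 (vertical axes) for 7 member genes on the left and for the means of 6 marker lists on the right. Controls 2 and 3 are higher for Krt19 (by 2.92 and 2.81), Krt8, Krt18, Sox9 and Clu and for the acinar list, and no other list plotted shows such a rise in both.

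**Figure D3:**
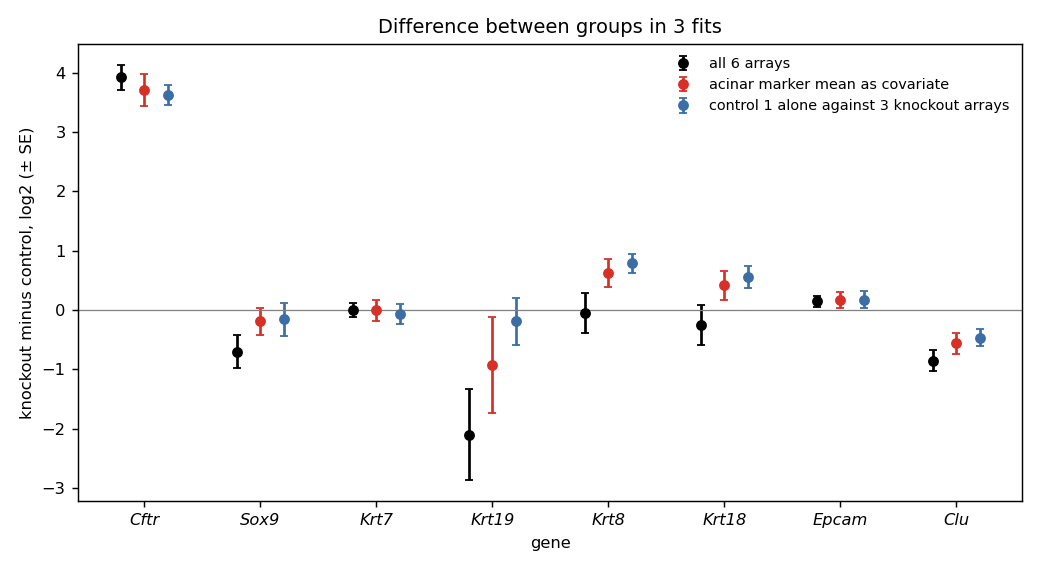
Knockout minus control difference on the log2 scale with its SE (vertical axis) for each gene in 3 fits: all 6 arrays, the acinar marker mean as covariate, and control 1 alone against the 3 knockouts. Cftr stays between 3.62 and 3.92, Krt19 goes from -2.10 to -0.19, and Krt8 from -0.050 to 0.78.

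Markers of other cells that express some of these genes were read beside them. The mesothelial list, whose cells share Krt19, Krt8 and Krt18, had a mean of 5.08 to 5.17 in controls and 5.09 to 5.40 in knockouts over 8 genes. Within it the mesothelin gene Msln read 7.46, 7.56 and 8.71 in controls and 7.60, 6.64 and 6.44 in knockouts (adjusted p = 0.38), and Gpm6a differed by 2.16 ± 0.38 (adjusted p = 0.063), while a dimmer Gpm6a probe set rose by 1.96 ± 0.31 (adjusted p = 0.049). Over all 18193 genes, 9165 had higher and 9028 lower means in knockouts, the background for the counts of direction that follow. Of 18 immune and macrophage markers 14 had higher means in knockouts. The list means were 5.59 to 5.89 in controls and 6.14 to 6.42 in knockouts, and 1 gene passed, Laptm5, which rose by 1.34 ± 0.11 (adjusted p = 0.0043). The other 4 Laptm5 probe sets differed by -0.041 to 0.57 and did not pass (adjusted p of 0.40 to 0.93). Alpha cell markers had lower means in knockouts for 7 of 7 genes, of which 1 passed (list means 8.46 to 8.58 in controls and 7.83 to 7.90 in knockouts). This was the amino acid transporter gene Slc38a5, which fell by 1.38 (SE 0.15, adjusted p = 0.012). Delta and PP cell markers had lower means for 6 of 6 genes, of which 2 passed: Ghsr fell by 1.17 (adjusted p = 0.0097) and Rbp4 fell by 0.73 (adjusted p = 0.027). Beta cell markers had means of 11.39 to 11.80 in controls and 11.07 to 11.40 in knockouts, with lower means for 7 of 9 genes. Of these 1 passed, the zinc transporter gene Slc30a8, which fell by 0.82 (SE 0.12, adjusted p = 0.039). Fibroblast (4.81 to 5.44 against 5.05 to 5.52) and endothelial (7.20 to 8.01 against 7.80 to 7.97) means overlapped between groups. The part of these cells in the member values was not tested.

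The background for the gene lists is that of all 18193 genes, of which 155 rose, 45 fell and 2538 had an unadjusted p under 0.05. Of 29 further duct markers, 1 rose, none fell and 28 did not pass (limma; 8 had an unadjusted p under 0.05), and the median difference was -0.068, beside 0.0020 over all 18193 genes. The gene that rose was Cp, which encodes the copper-carrying ferroxidase ceruloplasmin. It read 4.89, 5.21 and 4.58 in controls and 6.68, 6.83 and 6.47 in knockouts, a rise of 1.76 ± 0.19 (adjusted p = 0.010), with an adjusted p of up to 0.059 on 5 arrays. The other 7 Cp probe sets differed by 0.026 to 1.87, of which 2 passed, and the mean of all Cp probe sets rose by 1.01 (adjusted p = 0.0027). The calcium-binding protein gene S100a6 was the next by p, at 8.44, 9.32 and 9.78 in controls and 7.35, 7.27 and 7.39 in knockouts (-1.84 ± 0.31, adjusted p = 0.058), and passed without control 1 (adjusted p = 0.0053). Further duct genes were picked with their values in view: the stem and duct surface marker gene Prom1 differed by -1.07 ± 0.18 (adjusted p = 0.060) and the mucin gene Muc1 by -0.19 ± 0.35, with control 1 again the lowest control (5.71 against 6.92 and 6.70). The water channel gene Aqp1 of small ducts was dim and flat (0.10 ± 0.12), and the duct transcription factor gene Onecut1 differed by -0.057 ± 0.127. In the other direction, Lcn2 read 8.64, 9.58 and 8.78 in controls and 10.44, 10.72 and 9.67 in knockouts (1.28 ± 0.34, limma adjusted p = 0.18). Of the 29 duct markers, 11 had higher and 18 lower means in knockouts, beside 9165 and 9028 of all 18193 genes.

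Ductal anion secretion was read from a list of its own. Of 53 genes for CFTR partners, bicarbonate and chloride transporters and their regulators, 1 rose, none fell and 52 did not pass (10 at an unadjusted p under 0.05), with a median difference of 0.022. The gene that rose, Scnn1g, encodes the gamma subunit of the epithelial sodium channel. It read 6.42, 6.43 and 6.20 in controls and 7.19, 7.21 and 7.20 in knockouts (0.85 ± 0.11, limma adjusted p = 0.023). With 1 array dropped, Scnn1g passed in 1 of 6 fits (adjusted p up to 0.11). Vipr1, a receptor for the secretory peptide VIP, differed by -0.84 ± 0.14 (adjusted p = 0.055). Next by p, and read after their values were seen, were Ezr (0.63 ± 0.14), Ano6 (-0.49 ± 0.12) and Slc4a5 (-1.01 ± 0.30). Their limma adjusted p were 0.11, 0.15 and 0.23. Among genes chosen after their values were seen, the basolateral bicarbonate importer gene Slc4a4 differed by 0.49 ± 0.23, the chloride-bicarbonate exchanger genes Slc26a3 and Slc26a6 by 0.30 ± 0.12 and -0.24 ± 0.29, the secretin receptor gene Sctr by -0.13 ± 0.16 and the CFTR-anchoring protein gene Slc9a3r1 by 0.14 ± 0.33 (adjusted p of 0.38 to 0.90).

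Among 20 other keratin and keratin-linked genes none passed in limma (4 at an unadjusted p under 0.05), with a median difference of -0.051. The smallest p were those of Krt10 (-0.72 ± 0.17, adjusted p = 0.13) and Krt1 (-0.45 ± 0.15, adjusted p = 0.28), keratins of the stratified epidermis. None of the 20 had the control pattern of Krt8, Krt18 and Krt19.

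Of 45 genes of epithelial adhesion and junctions, 2 rose, 1 fell and 42 did not pass (12 at an unadjusted p under 0.05, median difference -0.017). Jup, which encodes plakoglobin, the catenin shared by desmosomes and adherens junctions, read 9.90, 9.92 and 9.73 in controls and 8.63, 8.71 and 8.79 in knockouts, a fall of 1.14 on the log2 scale (SE 0.11, adjusted p = 0.0075, at most 0.051 when any array was dropped). Grhl1, a grainyhead-like epithelial transcription factor gene, rose by 0.89 ± 0.13 (limma adjusted p = 0.038), and the laminin-binding integrin gene Itga6 by 0.83 ± 0.13 (adjusted p = 0.048). With 1 array dropped, Jup passed in 5 of 6 fits. Grhl1 and Itga6 each passed in 0 of 6 (adjusted p up to 0.16 and 0.19). In this list 7 genes had the control pattern of the keratin pair, and they went both ways between groups. Means in knockouts were higher for St14, Ocln, Perp and Crb3 and lower for Cldn4, Itgb4 and Cldn3. The tight-junction gene Cldn4, picked with its values in view, read 7.97, 9.02 and 8.99 in controls and 7.42, 7.28 and 6.68 in knockouts (difference -1.53 ± 0.33, limma adjusted p = 0.11). St14, picked likewise, read 8.31, 9.23 and 9.08 in controls and 10.30, 10.40 and 9.98 in knockouts (1.35 ± 0.26, limma adjusted p = 0.078). E-cadherin (Cdh1), the core adhesion protein of these cells, was steady, at -0.11 ± 0.13.

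No gene passed in limma in the SOX9 and Notch list (0 of 28, with 9 at an unadjusted p under 0.05) or among receptors and partners of osteopontin and clusterin (0 of 22, with 3). The fibroblast growth factor receptor gene Fgfr2, which relays growth signals to pancreatic progenitors, read 5.34, 5.01 and 5.72 in controls and 6.85, 8.17 and 7.27 in knockouts (2.07 ± 0.35, adjusted p = 0.055), and the other Fgfr2 probe sets gave 1.54 ± 0.55 and 0.11 ± 0.13 (1.24 for the mean of all). Sox11, a SOX gene of developing tissue, read 4.52, 3.57 and 4.58 in controls and 7.04, 5.47 and 6.28 in knockouts (2.04 ± 0.43, adjusted p = 0.11). A dimmer Sox11 probe set rose by 2.30 ± 0.34 (adjusted p = 0.036). The remaining Sox11 probe sets differed by 0.55 to 1.48 and did not pass (limma adjusted p of 0.056 to 0.41). The mean of all Sox11 probe sets rose by 1.44 (limma adjusted p = 0.036). The transglutaminase gene Tgm2 (0.94 ± 0.19, adjusted p = 0.094, or 0.60 as the mean of its probe sets) and the integrin subunit gene Itgav (0.32 ± 0.12, adjusted p = 0.34) had the smallest p of the receptor list.

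Of 25 genes of pancreatic injury and regeneration, 1 rose, none fell and 24 did not pass (8 at an unadjusted p under 0.05, median difference -0.069). The adhesion molecule gene Icam1 rose by 1.11 ± 0.14 (limma adjusted p = 0.023), and the acute-phase gene Saa3 differed by 1.35 ± 0.33 (adjusted p = 0.16). With 1 array dropped, Icam1 passed in 1 of 6 fits (adjusted p up to 0.11). In 9 of the 25 genes controls 2 and 3 exceeded control 1 by at least 0.5, for example Reg1 (6.21, 12.03 and 11.93 in controls, 8.93, 5.60 and 6.08 in knockouts, chosen after its values were seen).

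Over the 7 gene lists together, 219 genes counted once, 5 rose and 1 fell. With the acinar covariate none of these genes passed (limma, 42 at an unadjusted p under 0.05), though all 6 kept their direction, with differences from 0.79 (Scnn1g) to 1.76 (Cp) for the 5 and of -1.22 for Jup. The count was 18 without control 1 and 0 without knockout 1 (42 at an unadjusted p under 0.05), 2 without control 2 or control 3, 1 without knockout 2 and 3 without knockout 3.

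**Figure D4:**
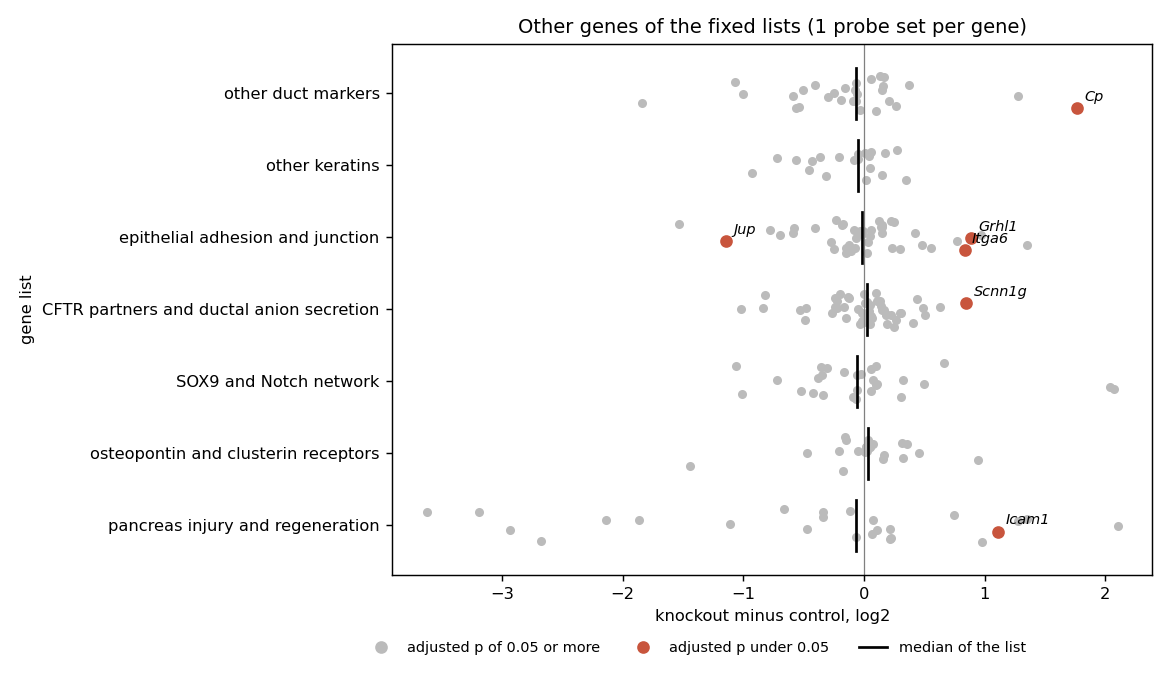
Knockout minus control difference on the log2 scale (horizontal axis) of each gene in the 7 lists (rows), 1 point per gene on its brightest probe set, with the 6 genes past adjusted p 0.05 in red and named and the median of each list as a black line. The medians lie between -0.069 and 0.030, and the grey points far to the left in the injury list include genes such as Reg1.

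The genes that neighbour the members, from the order of protein-coding genes in the RefSeq table, were read as a further comparison (chosen after the member values were known). On 1 side of Cftr, Asz1 was dim and differed by 0.19 ± 0.14 (adjusted p = 0.64). On the other side, Cttnbp2, which encodes a cortactin-binding protein, read 6.16, 5.84 and 5.80 in controls and 7.45, 7.27 and 7.81 in knockouts, a rise of 1.58 ± 0.18 (adjusted p = 0.012). Its second, dimmer probe set differed by 0.12 ± 0.11 (adjusted p = 0.70), and the mean of both rose by 0.85. Cftr and its neighbour were thus both higher in all knockouts than in any control. Next to Sox9, the zinc transporter gene Slc39a11 rose by 0.95 ± 0.09 (7.68, 7.65 and 7.64 in controls, 8.58, 8.63 and 8.62 in knockouts, adjusted p = 0.0082). On the other side of Sox9, the potassium channel gene Kcnj2 differed by 0.15 ± 0.19 (adjusted p = 0.79). Dropping single arrays took the adjusted p as high as 0.076 for Cttnbp2 and 0.054 for Slc39a11, and the acinar covariate took it to 0.11 and 0.088. Krt8 and Krt18 neighbour each other, and the genes on their outer sides, Krt78 (-0.088 ± 0.113) and Eif4b (-0.15 ± 0.13), did not pass. None of the measured neighbours of Krt7, Krt19, Epcam or Clu passed either (adjusted p of 0.33 to 0.97).

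The genes most like Cftr over the 6 arrays, among 1081 genes with an SD of at least 0.5, were Pros1 (r = 0.999), the surfactant lectin gene Sftpd (0.997), Lgmn (0.997), Nacc2 (0.997) and Slc2a13 (0.996). Pros1, the gene of the anticoagulant protein S, read 7.83, 7.79 and 7.49 in controls and 10.18, 10.07 and 10.16 in knockouts, so control 3 was the lowest array, as for Cftr. Lgmn, a lysosomal protease gene, and Slc2a13, a myo-inositol transporter gene, also had control 3 lowest (6.01 and 5.54). The same held for Sftpd (5.98) and Nacc2 (7.51). Their differences between groups were 2.43 ± 0.13 for Pros1, 4.38 ± 0.17 for Sftpd, 2.39 ± 0.14 for Lgmn, 1.08 ± 0.11 for Nacc2 and 2.26 ± 0.16 for Slc2a13. With 6 arrays in 2 groups, any gene with a wide and even gap has a high r. The ranking used these same arrays, so a lowest control shared with Cftr is favoured by it and is no separate observation.

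For Krt19 the most alike were Cth (0.989), Bzw2 (0.988), Ptf1a (0.971), Anxa3 (0.971) and Homer2 (0.968). Ptf1a, the transcription factor that drives acinar genes, read 3.55, 6.89 and 6.47 in controls and 3.70, 3.72 and 3.17 in knockouts. Anxa3, an annexin gene from the duct list, read 6.41, 7.80 and 7.48 in controls and 6.27, 6.30 and 6.12 in knockouts, and Cth, which encodes the cysteine-forming enzyme cystathionine gamma-lyase, 2.79, 4.06 and 3.90 against 2.63, 3.16 and 2.74. All 5 had controls 2 and 3 as their highest arrays, and none passed in limma between groups (adjusted p of 0.28 to 0.44). Sharing the highest arrays with Krt19 is likewise favoured by the ranking. The correlations are descriptions over 6 arrays, and the 2 sets of genes share none.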

How the data were processed

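Expression was measured in islets of 3 control and 3 knockout mice on 1-colour Affymetrix arrays. The deposited values are log2 expression per probe set, made by the authors with RMA per the submitters' processing notes. RMA as a method corrects background, normalizes by quantiles and summarises probes; its version is not given in the sources used here. RMA gives no detection call, so dim values are open to background, and the number of arrays limits the precision.

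Of 45101 probe sets, 64 control sets were left out. Names came from the platform annotation (34945 probe sets with 1 symbol, 932 with several, 9160 with none listed; 34741 matched to RefSeq by gene identifier), and the brightest probe set stood for a gene. The 2 groups entered limma 3.58.1 (R 4.3.3; lmFit and eBayes, two-sided), adjusted over 45037 probe sets by Benjamini-Hochberg, and called at an adjusted p under 0.05; the fit was tested on simulated data. SE is limma's moderated standard error. Of 349 list entries 320 were measured. The members and lists were chosen with earlier results of these data known.

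Named genes were the members, the called genes of each list with its 2 smallest p, and the 5 genes most like Cftr and Krt19. Others are marked in the text. Alternatives left out each array, blocked on replicate number, centred or renormalized arrays, removed dim probe sets, set a floor of 4, changed the variance model, averaged probe sets, used the mean of 26 acinar markers as a covariate, or dropped controls 2 and 3.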

Additional observations from a re-analysis of the deposited data

How the results depend on the processing

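The count of called probe sets, 404, was 152 to 783 when 1 array was left out (152 without control 3, 783 without control 1). It was 246 with a replicate block, 118 with a floor of 4, 903 with trended and robust variance, 136 with the acinar covariate and 54 without controls 2 and 3. Of the members, 1 gene was called (Cftr), and this call describes a gene selected on the same contrast, so that its recurrence under the alternatives is no independent support. The count was 1 to 3 with 1 array left out (3 without control 1, when Clu and Krt19 passed too), and 2 with trended and robust variance and with averaged probe sets (Clu in both). Of the 219 other list genes, 6 were called, and 0 to 18 with 1 array left out (0 without knockout 1, 18 without control 1). That count was 12 without dim probe sets, 1 with a floor of 4, 18 with trended and robust variance, 0 with the acinar covariate, 1 without controls 2 and 3 and 10 with averaged probe sets (limma throughout; the 0 counts each have 42 genes at an unadjusted p under 0.05). The Cftr difference was 3.68 to 4.07 with 1 array left out and 3.36 with averaged probe sets. That of Krt19 was -3.06 to -1.60, that of Krt8 -0.47 to 0.18 and that of Krt18 -0.66 to -0.0027. Same-numbered arrays did not deviate together (correlations -0.054, 0.14 and 0.0045), so the replicate numbers were not taken as pairs. The cause of these changes was not tested. Dim probe sets, such as those of Cftr in controls, limit the folds.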
